A study of Mus musculus with 6 samples.

Results

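The 55 genes described here encode the proteins that mark replication origins, load and start the replicative helicase, and copy DNA at the fork. They were listed by symbol and matched to the Ensembl identifiers of the count tables through GENCODE mouse release 21. All 55 were found among 55536 counted genes, and all 55 passed the filter on low counts, which kept 21465 genes. Whole testes of 3 KOStra8 and 3 HETStra8 mice aged 7 weeks were compared, with 1 poly(A)+ RNA library per mouse. KOStra8 mice carried a floxed and a deleted allele of Sel1L, which encodes a subunit of an ER-associated degradation complex, together with Stra8-Cre, a Cre recombinase under a male germ cell promoter. The HETStra8 controls were, by the series' design text, littermates that carried the same allele pair, floxed and deleted, but for which Stra8-Cre is not named. The paper uses the name also for Cre-positive animals with 1 floxed and 1 wild-type Sel1L allele, and no label gives the genotype of a single mouse. In the study's stainings, spermatogonia and Sertoli cells of KOStra8 testes kept SEL1L, and spermatogonia are among the cells that replicate DNA.

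The libraries held between 28875108 and 36526695 counts, and the 55 genes took 0.232% to 0.248% of them. Levels are given as CPM, counts scaled to a common library size by TMM, and as CPM per kb of exon where genes are compared with each other. Sel1l, the targeted gene, was at 49.3, 47.6 and 42.4 CPM in HETStra8 mice 1, 2 and 3, and at 24.2, 22.0 and 20.3 CPM in the KOStra8 mice in the same order, so that every KOStra8 mouse was below every HETStra8 mouse. Its log2 fold change was −1.07 (SE 0.104, unadjusted p = 5.68e-08, adjusted p = 0.000610) in edgeR's quasi-likelihood test, which is the test behind each unadjusted or adjusted p given for single genes unless another tool is named. The tissue carried its defining markers, with Prm1, a protamine of elongating spermatids, at 1860.0, 1724 and 1745 CPM in the HETStra8 mice and 1644, 1833 and 1753 CPM in the KOStra8 mice. Nanos2, a marker of spermatogonial stem cells, was at 0 CPM in every mouse except KOStra8 mouse 3, where it reached 0.110 CPM. HETStra8 mouse 1 stood apart on the first principal component of all genes, at −57.2 against −10.2 to 28.7 for the other mice. In whole testis, fewer cells of a type and less RNA per cell cannot be told apart.

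Origins are bound by the origin recognition complex, which with CDC6 and CDT1 loads rings of MCM2 to MCM7 onto DNA, and geminin blocks CDT1 so that loading does not recur within a cycle. The DBF4-dependent kinase CDC7 and firing factors then recruit CDC45 and the GINS tetramer, which turn MCM into the active CMG helicase, after which polymerase alpha-primase starts each strand, polymerase epsilon extends the leading strand and polymerase delta, held by the PCNA clamp, extends Okazaki fragments. In the adult testis, DNA is copied in dividing spermatogonia and once more in preleptotene spermatocytes before meiosis, and many of these genes are known targets of E2F factors, which act at the G1 to S transition.

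The promoters of 6 members are shown because they hold the letters of the E2F motif, which were more frequent among the members than among other genes. They are 4 helicase genes, and Orc3 and Pold1, which with Mcm5 are the members that hold such letters and had an unadjusted p below 0.05 between the genotypes. Each window runs from 250 bases before to 50 bases after the RefSeq start site (GRCm38.p6), is printed 5′ to 3′ on the gene's strand, and has the E2F letters in capitals.
Orc3, chr4:34614893-34615192, minus strand: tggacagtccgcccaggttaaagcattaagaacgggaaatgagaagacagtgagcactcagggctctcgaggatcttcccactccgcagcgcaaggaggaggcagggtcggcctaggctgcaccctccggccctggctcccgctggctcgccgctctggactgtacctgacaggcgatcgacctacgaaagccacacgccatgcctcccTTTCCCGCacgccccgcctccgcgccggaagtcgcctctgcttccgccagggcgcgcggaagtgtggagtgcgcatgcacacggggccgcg
Mcm3, chr1:20820263-20820562, minus strand: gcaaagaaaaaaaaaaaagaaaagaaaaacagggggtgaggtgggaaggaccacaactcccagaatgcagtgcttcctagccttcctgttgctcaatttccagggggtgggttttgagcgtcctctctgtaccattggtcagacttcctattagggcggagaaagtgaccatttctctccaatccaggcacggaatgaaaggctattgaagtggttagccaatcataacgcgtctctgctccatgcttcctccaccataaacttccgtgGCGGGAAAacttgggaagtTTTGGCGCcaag
Mcm5, chr8:75109259-75109558, plus strand: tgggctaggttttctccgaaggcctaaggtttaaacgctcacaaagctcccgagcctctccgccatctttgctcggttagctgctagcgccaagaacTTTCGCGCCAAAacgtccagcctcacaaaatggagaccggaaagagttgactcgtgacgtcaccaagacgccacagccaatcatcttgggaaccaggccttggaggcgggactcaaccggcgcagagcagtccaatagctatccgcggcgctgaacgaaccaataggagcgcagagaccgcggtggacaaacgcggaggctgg
Mcm6, chr1:128359656-128359955, minus strand: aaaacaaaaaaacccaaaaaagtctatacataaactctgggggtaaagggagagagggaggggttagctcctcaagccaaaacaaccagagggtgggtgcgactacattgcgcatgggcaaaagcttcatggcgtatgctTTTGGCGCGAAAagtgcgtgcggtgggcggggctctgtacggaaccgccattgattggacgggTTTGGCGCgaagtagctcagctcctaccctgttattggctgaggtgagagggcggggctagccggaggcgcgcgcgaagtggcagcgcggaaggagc
Mcm7, chr5:138171834-138172133, minus strand: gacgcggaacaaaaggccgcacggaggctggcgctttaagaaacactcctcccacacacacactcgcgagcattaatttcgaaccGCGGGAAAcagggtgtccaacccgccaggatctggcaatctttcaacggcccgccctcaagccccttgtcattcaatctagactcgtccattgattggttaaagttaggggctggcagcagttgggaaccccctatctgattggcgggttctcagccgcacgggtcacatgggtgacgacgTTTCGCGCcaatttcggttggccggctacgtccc
Pold1, chr7:44548766-44549065, minus strand: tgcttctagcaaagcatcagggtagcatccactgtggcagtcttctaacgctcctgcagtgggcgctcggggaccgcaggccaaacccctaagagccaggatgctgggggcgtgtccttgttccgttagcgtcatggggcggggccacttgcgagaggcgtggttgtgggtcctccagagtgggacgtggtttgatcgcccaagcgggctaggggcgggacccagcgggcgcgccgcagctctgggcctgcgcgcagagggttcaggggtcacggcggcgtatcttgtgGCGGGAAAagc

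The letters searched were TTTCCCGC, TTTGGCGC, TTTCGCGC and TTTGCCGC on both strands. The Mcm5 window, set by RefSeq, ends before the GENCODE start of the gene. Matches may overlap, as the pair in the Mcm5 window and the first pair in the Mcm6 window do. Of the 44 members with a window in the RefSeq table, 18 (40.9%) held at least 1 match, against 2.6% of 27025 genes. Counted by window, 35.2% of 54 member windows held a match, against 2.26% of 32851 windows of the same length. The CCAAT box (CCAAT on either strand), which overlaps an E2F match in the Mcm7 window, was in 50% of the members with a window and 41.1% of all genes. A match describes letters in a window and is not a measured binding site.

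Matches were unevenly spread over the subcomplexes. They were in 5 of the 7 members of the MCM group with a window, namely Mcm3, Mcm5, Mcm6, Mcm7 and Mcmbp, and in both licensing genes with one, Cdc6 and Cdt1. The others were Orc1, Orc3, Gins3, Pola1, Pold1, Pold3, Pole2, Pole4, Rfc3, Lig1 and Clspn, while 0 of 4 origin firing genes with a window held a match. Of 24 matches, with a site shared by overlapping windows of Pole4 counted once, 17 lay within 50 bases on either side of the start and 10 after it. The median log2 fold change between genotypes was −0.087 for the 18 members with a match and −0.063 for the 26 with a window but without one.

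**Figure D1:**
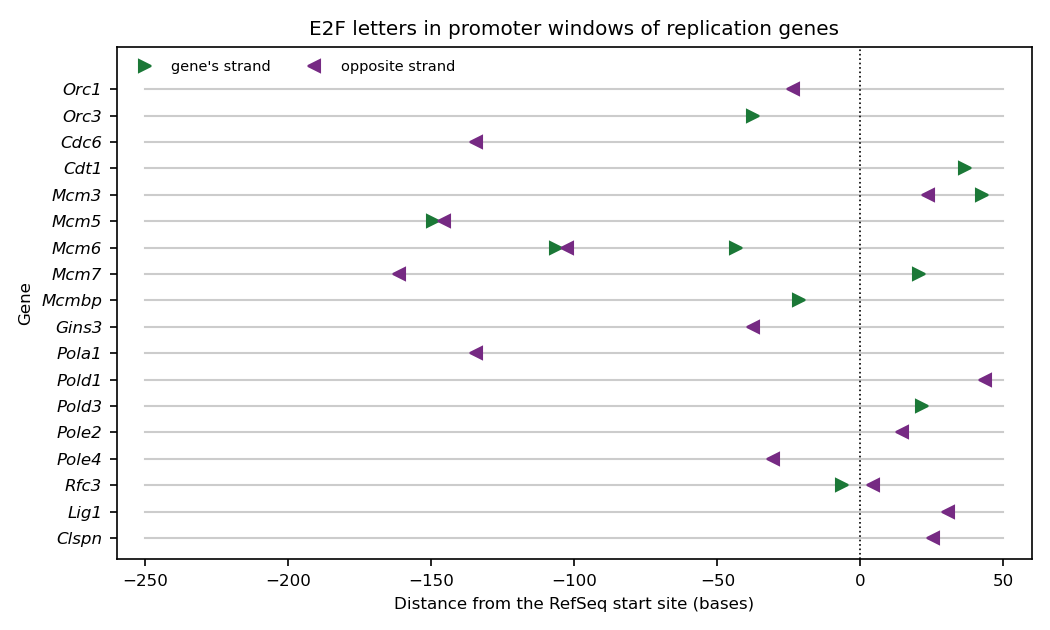
Position of each E2F match in the promoter windows of the 18 members that hold one, as the distance in bases from the nearest RefSeq start site of the gene (dotted line at 0); right-pointing triangles are matches on the gene's strand and left-pointing ones on the opposite strand. Of 24 matches, 17 lie within 50 bases of the start.

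Transcript levels of the 55 genes spanned a wide range within a single tissue. Their median was 5.02 CPM per kb, against 2.76 CPM per kb over all tested genes, and 37 of the 55 (67.3%) were above the latter. The highest level was that of Rnaseh2a, the catalytic subunit of RNase H2, at 139.7 CPM per kb. Next came Pole3, a histone-fold subunit of polymerase epsilon (49.3 CPM per kb), Mcm7 (45.0), Pcna (37.1) and Pold3, an accessory subunit of polymerase delta (35.0). The lowest were Pola1, the X-linked catalytic subunit of polymerase alpha (0.281 CPM per kb), Pole2 (0.450), Rnaseh2b (0.520), Pold4 (0.744) and Cdt1 (0.874). In this order, the ranges over the 6 mice were separate for 6 of 54 neighbouring pairs, Rnaseh2a and Pole3, Mcm7 and Pcna, Donson and Fen1, Gins1 and Rnaseh2c, Gins3 and Ticrr, and Pole2 and Pola1. The ranges of the other neighbours overlapped, a check that does not compare both genes within each mouse. Pole3, for one, was above Mcm7 in every mouse.

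Subunits that work in a fixed ratio in 1 protein complex differed many-fold in transcript level. Within RNase H2, Rnaseh2a was 268 times as high per kb as Rnaseh2b, with 200.5 to 453 across the mice, and Rnaseh2c was at 8.05 CPM per kb. Within polymerase epsilon, Pole3 was 109.5 times as high as Pole2 (83.2 to 128 across the mice), while the catalytic Pole (5.63 CPM per kb) and Pole4 (5.72) were alike. Within polymerase delta, Pold3 was 47.1 times as high as Pold4 (30.4 to 68.8 across the mice), with Pold2 at 15.8 and the catalytic Pold1 at 3.60 CPM per kb.

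The helicase ring showed the same unevenness. Mcm7 was at 45.0 CPM per kb, whereas Mcm3 (5.42), Mcm6 (5.36), Mcm5 (5.19), Mcm4 (2.69) and Mcm2 (1.66) lay far lower, as did the MCM-binding protein Mcmbp (3.70) and the initiation factor Mcm10 (1.09). Some Mcm7 reads can belong elsewhere, since 23.3% of its 50-base sequences are also in other genes, mostly Gm5487, and Mir25 and Mir93 lie in it. Rnaseh2a shares 12.8% of its 50-base sequences, mostly with Gm49661, and Pcna 19.1%, mostly with the pseudogene Pcna-ps2. Divided by the length of the longest transcript in place of all exons, 16 of the 55 levels were over 1.5 times as high, among them those of Dbf4 (27.7 CPM per kb), Pola2 (10.9), Prim2 (11.3) and Mcm2 (3.31). The order at the top was then Rnaseh2a, Mcm7, Pcna, Pold3 and Pole3, at 164, 67.3, 58.7, 52.5 and 51.7 CPM per kb. By that length Rnaseh2a was 252 times as high as Rnaseh2b, Pole3 was 68.0 times as high as Pole2, Pold3 was 55.4 times as high as Pold4, and the lowest of the origin recognition genes was Orc1.

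Per kb of exon, the other subcomplexes had ratios of highest to lowest gene below the 41.4 of the MCM group. The clamp and its loader came nearest, at 31.7 for Pcna over Rfc5. By the longest transcript this ratio was 40.3, against 39.1 in the MCM group. Origin recognition subunits ranged from Orc2 (12.0 CPM per kb) through Orc3 (5.30), Orc6 (5.02), Orc5 (4.35) and Orc1 (2.81) to Orc4 (2.59), a ratio of 4.64. Geminin (Gmnn) was at 14.3 CPM per kb and Cdc6 at 2.31, which together with the low Cdt1 gave a ratio of 16.4 between Gmnn and Cdt1. Among firing factors, Donson was at 23.5, Dbf4 at 7.95, Cdc7 at 5.13, the RecQ helicase Recql4 at 3.97 and Ticrr at 1.30 CPM per kb. Of the exon bases of Donson, 9.17% are shared with Atp5o on the same strand.

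The GINS subunits, present in equal numbers in the helicase, ranged from Gins4 (25.9 CPM per kb) through Gins1 (11.8) and Gins2 (3.74) to Gins3 (1.598), with Cdc45 at 6.98. In polymerase alpha-primase, the primase subunits Prim2 and Prim1 were at 4.65 and 1.78 CPM per kb and the accessory Pola2 at 3.76. The clamp loader subunits ranged from Rfc2 (29.9) and Rfc1 (25.2) through Rfc4 (17.2) and Rfc3 (3.29) to Rfc5 (1.17 CPM per kb). Fen1, the flap nuclease, was at 18.2, the ligase Lig1 at 7.45 and the nuclease-helicase Dna2 at 1.14 CPM per kb. Of the fork protection genes, Tipin was at 15.9, Wdhd1 at 2.69, Timeless at 2.18 and Clspn, which encodes claspin, at 1.71 CPM per kb.

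**Figure D2:**
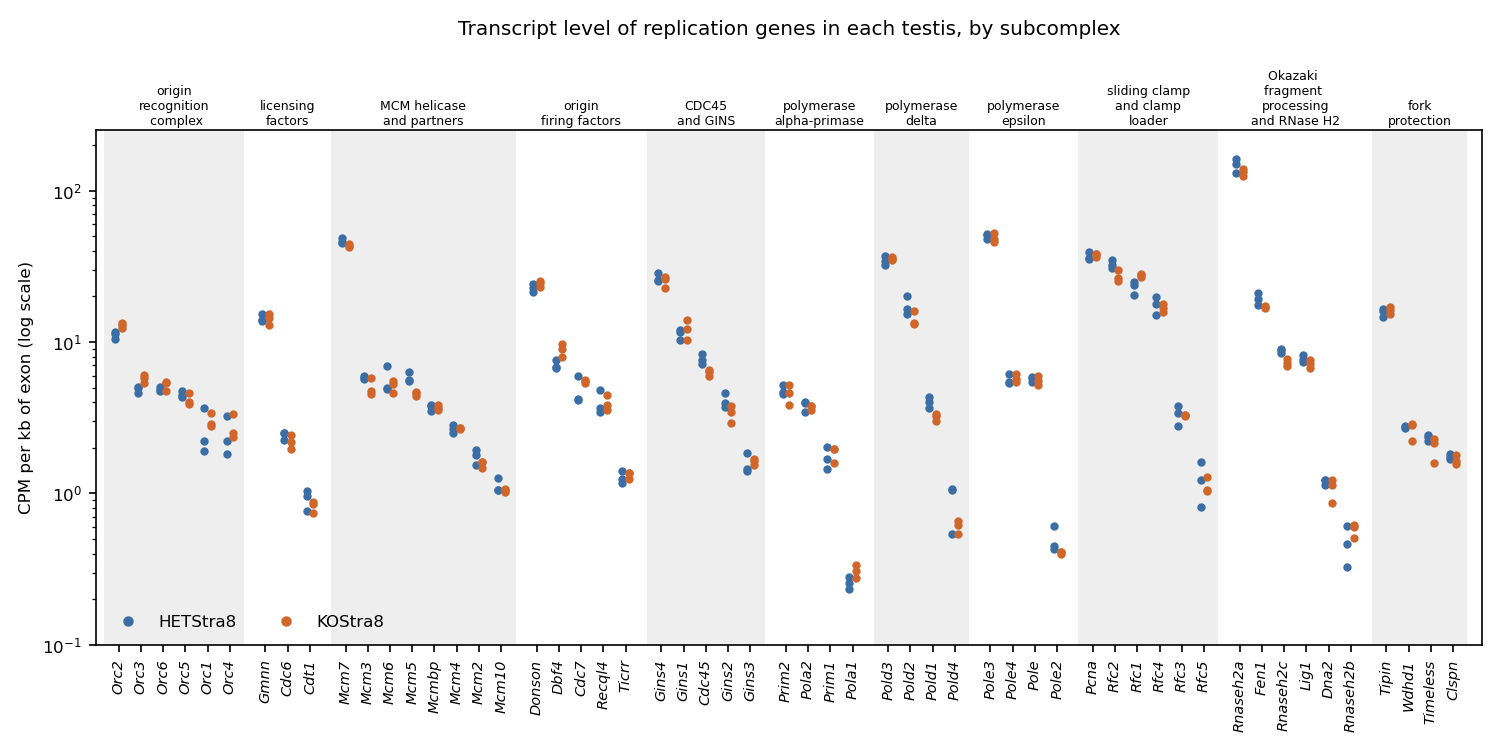
Level of each of the 55 genes in CPM per kb of exon on a log axis, grouped by subcomplex, with 1 point per mouse (blue, 3 HETStra8; orange, 3 KOStra8). Rnaseh2a stands highest and Pola1 lowest, and subunits of 1 complex are spread over up to 268-fold while the genotypes lie close together for each gene.

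Between the genotypes, no replication gene passed the study's cutoffs in the tests run here. At an adjusted p below 0.01 and over 2-fold, 0 of the 55 were called by edgeR, DESeq2 or limma-voom. DESeq2 gave an adjusted p for 49 of the 55, so that the remaining members could not be called by it. The shares called over all tested genes were 0.00932%, 0.0167% and 0.00932%, which are 2, 6 and 2 genes. The paper reports many more genes at the same cutoffs. With so few called here, a count of 0 among 55 says little about the members. The smallest adjusted p was 0.192, for Dbf4. At an unadjusted p below 0.05, edgeR gave 4 members higher in KOStra8 testes (Orc2, Orc3, Dbf4 and Rfc1), against 7.13% of all tested genes, and 6 lower (Mcm5, Cdc45, Pold1, Pold2, Rfc2 and Rnaseh2c), against 5.12%. The count of higher members is near that background and the count of lower members is somewhat above it, with no test of either. DESeq2 gave 4 higher and 5 lower members, against 4.33% and 2.89% of 35879 genes, and limma-voom 4 and 6, against 7.67% and 5.11% of 21465 genes. The DESeq2 shares include genes of low count that the filter removed for edgeR and limma-voom, so they are not on the same base. The 95% interval of the log2 fold change lay within a 2-fold change either way for 54 of 55 members, Pold4 being the exception, and within 1.5-fold for 46. Standard errors ran from 0.0689 for Mcm7 to 0.410 for Pold4, with a median of 0.120.

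The median log2 fold change of the members was −0.055, with 20 above 0 and 35 below, against −0.0094 over all tested genes. By mouse, the median of the members relative to the HETStra8 mean was 0.036, −0.015 and −0.022 in HETStra8 mice 1, 2 and 3, and −0.059, −0.025 and −0.0079 in the KOStra8 mice, so that the genotypes overlapped. The median shrank to −0.016 when HETStra8 mouse 1 was left out and to −0.022 when KOStra8 mouse 1 was. In 4 members every KOStra8 mouse was above every HETStra8 mouse, against 9.33% of all tested genes, and in 8 every KOStra8 mouse was below, against 8.43%. The 8 were Mcm5, Mcm7, Cdc45, Pold1, Pole2, Rfc2, Fen1 and Rnaseh2c.

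The log2 fold change fell with rising GC content, among the members and over all genes. Across the 55 members, log2 fold change and GC content of the longest transcript had a Spearman rho of −0.69, and across 21457 genes a rho of −0.46. Genes are not independent replicates, and these share the same 6 libraries. When all genes were split by GC content into 3 classes of like size, 0 of the 14 members in the GC-richest class had a log2 fold change above 0, while 13 of the 19 in the GC-poorest class did. Over all genes, 1775 of 7145 in the GC-richest class and 5375 of 7159 in the GC-poorest class were above 0. In the middle class, 7 of 22 members and 3251 of 7153 of all genes were above 0. By mouse, the deviation of all genes from their mean over the 6 mice, which holds the difference between the genotypes, correlated with GC content at a Spearman rho of 0.39, 0.29 and −0.052 in HETStra8 mice 1, 2 and 3, and of −0.24, −0.19 and −0.37 in the KOStra8 mice. Whether this trend came from the libraries or from the genotype was not tested.

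With offsets that remove the trend with GC content and transcript length in each library, the rho was −0.098 over the members. In this fit, 1 member was higher at an unadjusted p below 0.05 (Rfc1), against 4.33% of all tested genes, and 4 were lower (Orc5, Mcm5, Cdc45 and Rfc2), against 3.14%. The median of the members was then −0.030, against 0.0066 over all tested genes, and that of the 14 members of the GC-richest class was −0.10, against 0.0038 over all genes of that class. The sign changed with the offsets in 10 members, Orc3, Orc4, Gmnn, Mcm4, Mcm7, Recql4, Pole4, Pcna, Lig1 and Tipin. The part of base composition in the differences below was not tested further, and the log2 fold change of each member with the offsets is given beside the one without them.

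**Figure D3:**
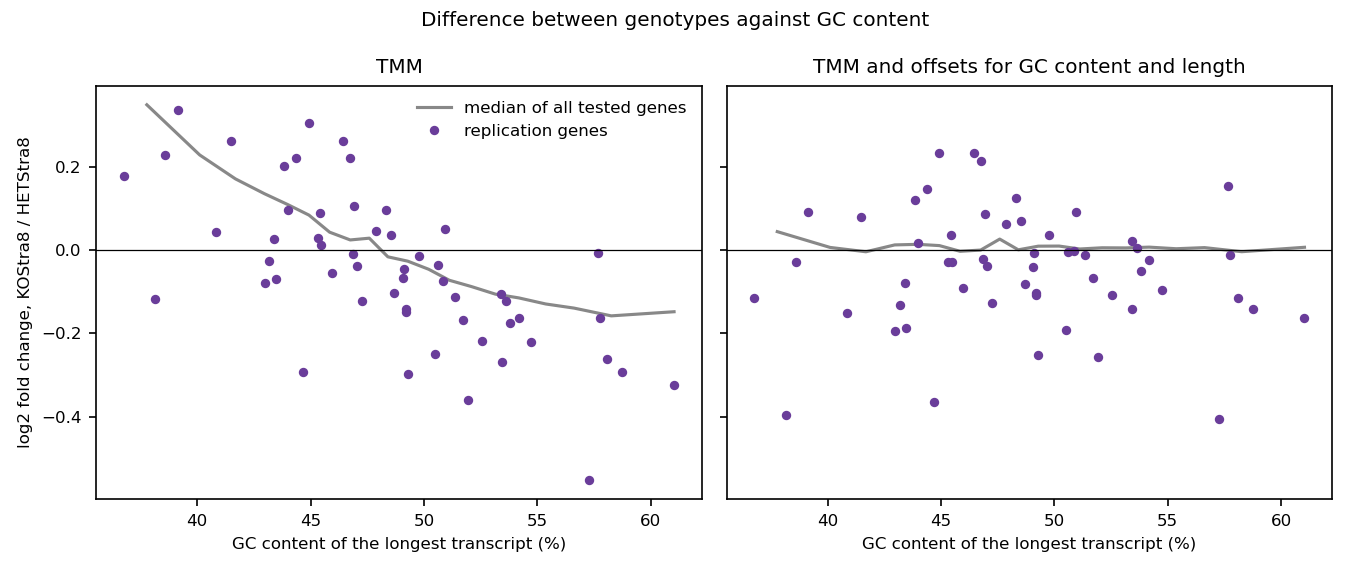
Log2 fold change of KOStra8 over HETStra8 against the GC content (%) of the longest transcript, for the 55 replication genes (points) and as the median of all tested genes in 20 bins of equal size (line), after TMM scaling (left) and with further offsets for GC content and length (right). On the left the points fall with GC content (rho −0.69), and on the right they do not (rho −0.098).

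Among the origin recognition genes, 5 of 6 had a log2 fold change above 0, with a median of 0.20. With the offsets, 3 of 6 were above 0 (Orc1, Orc2 and Orc6), and the median was 0.0035. Orc2 (ENSMUSG00000026037, chromosome 1 from 58462771 to 58505109) was at 43.5, 44.9 and 40.1 CPM in HETStra8 mice 1, 2 and 3, and at 50.05, 48.0 and 51.7 CPM in the KOStra8 mice in the same order. The groups did not overlap, with a log2 fold change of 0.22 (SE 0.0881, unadjusted p = 0.0250, adjusted p = 0.344) that was 0.15 with the offsets. Orc2 shares 29.8% of its exon bases with Nif3l1 on the other strand, and the strand setting of the counting is not given in the sources used here.

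Orc3 (ENSMUSG00000040044, chromosome 4 from 34570796 to 34614944), whose promoter is printed above, was at 28.2, 30.7 and 30.3 CPM in HETStra8 mice 1, 2 and 3, and at 35.0, 32.5 and 36.9 CPM in the KOStra8 mice in the same order. Each KOStra8 value exceeded each HETStra8 value, and the log2 fold change was 0.23 (SE 0.0958, unadjusted p = 0.0321, adjusted p = 0.365). It is a gene of low GC content (38.6%), and with the offsets its log2 fold change turned to −0.028. Orc5 was at 29.3, 27.6 and 26.8 CPM in the HETStra8 mice and 24.6, 24.0 and 28.5 CPM in the KOStra8 mice, overlapping, with a log2 fold change of −0.12 that became −0.40 (unadjusted p = 0.00299) with the offsets. With 1 mouse left out at a time, the unadjusted p of Orc2 and of Orc3 was below 0.05 in 3 of 6 fits each. The log2 fold change of Orc1 was 0.22 (0.21 with the offsets), that of Orc4 0.18 (−0.11 with the offsets) and that of Orc6 0.089 (0.035 with the offsets). With 1 mouse left out at a time, it ran from 0.044 to 0.56 for Orc1 and from 0.0046 to 0.46 for Orc4.

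All 3 licensing genes had log2 fold changes below 0, or 2 of 3 with the offsets, none at an unadjusted p below 0.05. Cdt1 was at 2.42, 3.00 and 3.27 CPM in the HETStra8 mice and 2.32, 2.76 and 2.68 CPM in the KOStra8 mice and had a log2 fold change of −0.16 (−0.013 with the offsets). Gmnn was at 22.4, 20.6 and 20.2 CPM in the HETStra8 mice and 18.9, 21.2 and 22.5 CPM in the KOStra8 mice and had a log2 fold change of −0.014 (0.035 with the offsets), and Cdc6 had one of −0.14 (−0.11 with the offsets). In each of the 3 the genotypes overlapped.

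In the MCM group, 7 of 8 genes had a log2 fold change below 0, with a median of −0.11, or −0.074 with the offsets. The summed level of the group was between 316 and 344 CPM in the HETStra8 mice and between 295 and 304 CPM in the KOStra8 mice, most of it from Mcm7. Mcm5 (ENSMUSG00000005410, chromosome 8 from 75109569 to 75128439), a helicase subunit with overlapping E2F matches in its promoter, was at 25.3, 22.1 and 22.5 CPM in HETStra8 mice 1, 2 and 3, and at 17.5, 18.7 and 18.3 CPM in the KOStra8 mice in the same order. The groups were separate, with a log2 fold change of −0.36 (SE 0.107, unadjusted p = 0.00473, adjusted p = 0.230). This difference was −0.26 (unadjusted p = 0.0192) with the offsets, and its unadjusted p stayed below 0.05 with each of the 6 mice left out in turn.

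Mcm7 was at 215, 204 and 200.5 CPM in the HETStra8 mice and 188, 192 and 196 CPM in the KOStra8 mice, separate by a narrow gap, with a log2 fold change of −0.11 (unadjusted p = 0.145) that was 0.021 with the offsets. Mcm4, the highest of the group by log2 fold change, 0.011 (−0.030 with the offsets),, was at 9.04, 10.2 and 9.60 CPM in the HETStra8 mice and 9.59, 9.78 and 9.67 CPM in the KOStra8 mice. The remaining genes overlapped between genotypes, at −0.17 (−0.067 with the offsets) for Mcm2, −0.22 (−0.11 with the offsets) for Mcm3, −0.12 (−0.13 with the offsets) for Mcm6, −0.10 (−0.082 with the offsets) for Mcm10 and −0.0099 (−0.021 with the offsets) for Mcmbp.

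Of the origin firing genes, 4 of 5 had log2 fold changes above 0, or 5 of 5 with the offsets. Dbf4 (ENSMUSG00000002297, chromosome 5 from 8396973 to 8422716), the activating subunit of the CDC7 kinase, was at 66.0, 59.6 and 58.4 CPM in HETStra8 mice 1, 2 and 3, and at 69.9, 78.2 and 84.2 CPM in the KOStra8 mice in the same order. Each KOStra8 mouse was above each HETStra8 mouse, and the log2 fold change was 0.34 (SE 0.0916, unadjusted p = 0.00250, adjusted p = 0.192), the largest above 0 among the 55. Dbf4 has a GC content of 39.1%, and with the offsets its log2 fold change was 0.091 (unadjusted p = 0.389). DESeq2 gave it an adjusted p of 0.0467, and edgeR without a filter on low counts one of 0.0202. Over all genes, these fits called 132 and 385 at an adjusted p below 0.01, against 4 in edgeR with the filter.

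The kinase itself, Cdc7, had a log2 fold change of 0.20 (0.12 with the offsets), with HETStra8 mouse 3 at 24.8 CPM and the other HETStra8 mice at 17.4 and 17.7 CPM. Recql4, the lowest of the firing genes by log2 fold change, was at 20.9, 15.9 and 15.0 CPM in the HETStra8 mice and 16.8, 19.4 and 15.4 CPM in the KOStra8 mice, a log2 fold change of −0.0061 (0.15 with the offsets). Ticrr and Donson had log2 fold changes of 0.050 (0.091 with the offsets) and 0.096 (0.12 with the offsets).

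Cdc45 (ENSMUSG00000000028, chromosome 16 from 18780447 to 18811987), which completes the CMG helicase, was at 25.1, 29.1 and 26.7 CPM in HETStra8 mice 1, 2 and 3, and at 22.1, 22.9 and 20.9 CPM in the KOStra8 mice in the same order. The groups were separate, with a log2 fold change of −0.30 (SE 0.104, unadjusted p = 0.0125, adjusted p = 0.286) that was −0.25 (unadjusted p = 0.0214) with the offsets. Its unadjusted p was below 0.05 in 4 of the 6 fits made without 1 mouse. Of its GINS partners, Gins1 was highest by log2 fold change, 0.11 (0.087 with the offsets), at 17.7, 15.6 and 18.2 CPM in the HETStra8 mice and 15.6, 18.5 and 21.3 CPM in the KOStra8 mice, which overlapped. Gins2, of which 67.3% of exon bases lie opposite Gse1, was at −0.27 (−0.14 with the offsets), Gins3 at 0.044 (0.062 with the offsets) and Gins4 at −0.074 (−0.0030 with the offsets) on the log2 scale.

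No gene of polymerase alpha-primase had an unadjusted p below 0.05. Pola1 was at 2.26, 2.05 and 2.46 CPM in the HETStra8 mice and 2.95, 2.45 and 2.71 CPM in the KOStra8 mice, a log2 fold change of 0.26 (0.078 with the offsets). Prim2 was at 26.8, 30.8 and 27.7 CPM in the HETStra8 mice and 22.7, 27.2 and 30.6 CPM in the KOStra8 mice, a log2 fold change of −0.080 (−0.19 with the offsets). Pola2 and Prim1 were at −0.037 (−0.038 with the offsets) and 0.097 (0.017 with the offsets) on the log2 scale.

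Polymerase delta had the lowest median of the subcomplexes, −0.31, which was −0.15 with the offsets. Pold1 (ENSMUSG00000038644, chromosome 7 from 44532746 to 44548849), the catalytic subunit and at 61.0% the member of highest GC content, was at 17.7, 21.1 and 19.6 CPM in HETStra8 mice 1, 2 and 3, and at 15.7, 16.4 and 14.6 CPM in the KOStra8 mice in the same order. Its groups were separate, with a log2 fold change of −0.32 (SE 0.116, unadjusted p = 0.0140, adjusted p = 0.292), and with the offsets the log2 fold change was −0.16 (unadjusted p = 0.178). Pold2 (ENSMUSG00000020471, chromosome 11 from 5872180 to 5878292), an accessory subunit, was at 38.1, 29.1 and 31.5 CPM in HETStra8 mice 1, 2 and 3, and at 25.0, 30.4 and 25.3 CPM in the KOStra8 mice in the same order.

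The Pold2 groups overlapped through KOStra8 mouse 2 and HETStra8 mouse 2, and the log2 fold change was −0.29 (SE 0.120, unadjusted p = 0.0286, adjusted p = 0.355), or −0.14 with the offsets. Without 1 mouse, the unadjusted p was below 0.05 in 4 of 6 fits for Pold1 and in 3 of 6 for Pold2. Pold3 was at 149, 157 and 171 CPM in the HETStra8 mice and 159.6, 166 and 164 CPM in the KOStra8 mice, a log2 fold change of 0.036 (0.069 with the offsets). Pold4 had the lowest log2 fold change of the 55, −0.55 (−0.40 with the offsets), and the widest error (SE 0.410), at 1.24, 1.22 and 0.630 CPM in the HETStra8 mice and 0.716, 0.760 and 0.630 CPM in the KOStra8 mice. HETStra8 mouse 3 lay with the KOStra8 mice there, and 24.6% of the exon bases of Pold4 are shared with AC109138.7 on the same strand.

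In polymerase epsilon, Pole2 was at 1.24, 1.75 and 1.29 CPM in the HETStra8 mice and 1.17, 1.18 and 1.15 CPM in the KOStra8 mice, which did not overlap by a small margin, with a log2 fold change of −0.29 (SE 0.320), or −0.36 with the offsets. Pole4 was at 13.7, 13.6 and 15.5 CPM in the HETStra8 mice and 13.6, 15.5 and 14.4 CPM in the KOStra8 mice, with a log2 fold change of 0.026 (−0.079 with the offsets). The abundant Pole3 and the catalytic Pole had log2 fold changes of −0.046 (−0.0070 with the offsets) and −0.036 (−0.0047 with the offsets), and no gene of the complex had an unadjusted p below 0.05.

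The clamp and its loader held a member in each direction. Rfc1 (ENSMUSG00000029191, chromosome 5 from 65261850 to 65335670), the large subunit of the clamp loader, was at 123, 142 and 149 CPM in HETStra8 mice 1, 2 and 3, and at 166, 162 and 169 CPM in the KOStra8 mice in the same order. The KOStra8 mice were all higher, with a log2 fold change of 0.26 (SE 0.0813, unadjusted p = 0.00610, adjusted p = 0.242) that was 0.23 (unadjusted p = 0.00467) with the offsets. Its unadjusted p was below 0.05 with each of the 6 mice left out in turn, and without HETStra8 mouse 3 its adjusted p was 0.0234. Without that mouse, edgeR called 443 of all genes at an adjusted p below 0.01, against 4 with all 6 mice.

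Rfc2 (ENSMUSG00000023104, chromosome 5 from 134581366 to 134601805), a small subunit of the same loader, was at 218, 203 and 193 CPM in HETStra8 mice 1, 2 and 3, and at 189, 168 and 160.0 CPM in the KOStra8 mice in the same order. All KOStra8 mice were below all HETStra8 mice, by 188.6 against 193 CPM at the nearest, and the log2 fold change was −0.25 (SE 0.0813, unadjusted p = 0.00812, adjusted p = 0.257). With the offsets it was −0.19 (unadjusted p = 0.0124). Its unadjusted p was below 0.05 in 5 of the 6 fits with a mouse left out. Rfc2 has 15.1% of its exon bases opposite Lat2. Pcna had a log2 fold change of 0.028 (−0.028 with the offsets), Rfc3 of −0.026 (−0.13 with the offsets), Rfc4 of −0.071 (−0.19 with the offsets) and Rfc5 of −0.11 (−0.012 with the offsets), with overlap between genotypes in each.

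Among the genes that mature Okazaki fragments or remove ribonucleotides, 5 of 6 had log2 fold changes below 0, or 4 of 6 with the offsets. Rnaseh2c (ENSMUSG00000024925, chromosome 19 from 5601873 to 5607019), an accessory subunit of RNase H2 with 24.8% of its exon bases opposite Kat5, was at 15.4, 14.5 and 15.2 CPM in HETStra8 mice 1, 2 and 3, and at 12.0, 13.3 and 12.4 CPM in the KOStra8 mice in the same order. Its groups were separate, with a log2 fold change of −0.26 (SE 0.120, unadjusted p = 0.0483, adjusted p = 0.403), or −0.11 with the offsets. In 0 of the 6 edgeR fits without 1 mouse was the unadjusted p of Rnaseh2c below 0.05. Rnaseh2b, the other accessory subunit, was at 2.90, 2.05 and 3.78 CPM in the HETStra8 mice and 3.87, 3.18 and 3.73 CPM in the KOStra8 mice, an overlap, with a log2 fold change of 0.30 (0.23 with the offsets).

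The catalytic Rnaseh2a, at 570.1, 522 and 461 CPM in the HETStra8 mice and 435, 486 and 466 CPM in the KOStra8 mice, overlapped and had a log2 fold change of −0.16 (unadjusted p = 0.0648) that was −0.024 with the offsets. Fen1 was lower in each KOStra8 mouse, at 46.6, 42.7 and 51.2 CPM in the HETStra8 mice and 42.0, 40.9 and 41.5 CPM in the KOStra8 mice, a log2 fold change of −0.18 (unadjusted p = 0.0798), or −0.049 with the offsets. Of the exon bases of Fen1, 84.2% lie opposite Gm10143 or Tmem258. Lig1 and Dna2 had log2 fold changes of −0.12 (0.0050 with the offsets) and −0.15 (−0.10 with the offsets).

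No fork protection gene had an unadjusted p below 0.05. Timeless was at 14.5, 13.6 and 14.8 CPM in the HETStra8 mice and 14.0, 13.2 and 9.70 CPM in the KOStra8 mice, where KOStra8 mouse 3 was lowest, a log2 fold change of −0.22 (−0.097 with the offsets). Its partner Tipin was at 29.8, 30.7 and 27.3 CPM in the HETStra8 mice and 28.5, 31.7 and 30.3 CPM in the KOStra8 mice, a log2 fold change of 0.042 that turned to −0.15 with the offsets. Wdhd1 and Clspn had log2 fold changes of −0.055 (−0.090 with the offsets) and −0.067 (−0.041 with the offsets).

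**Figure D4:**
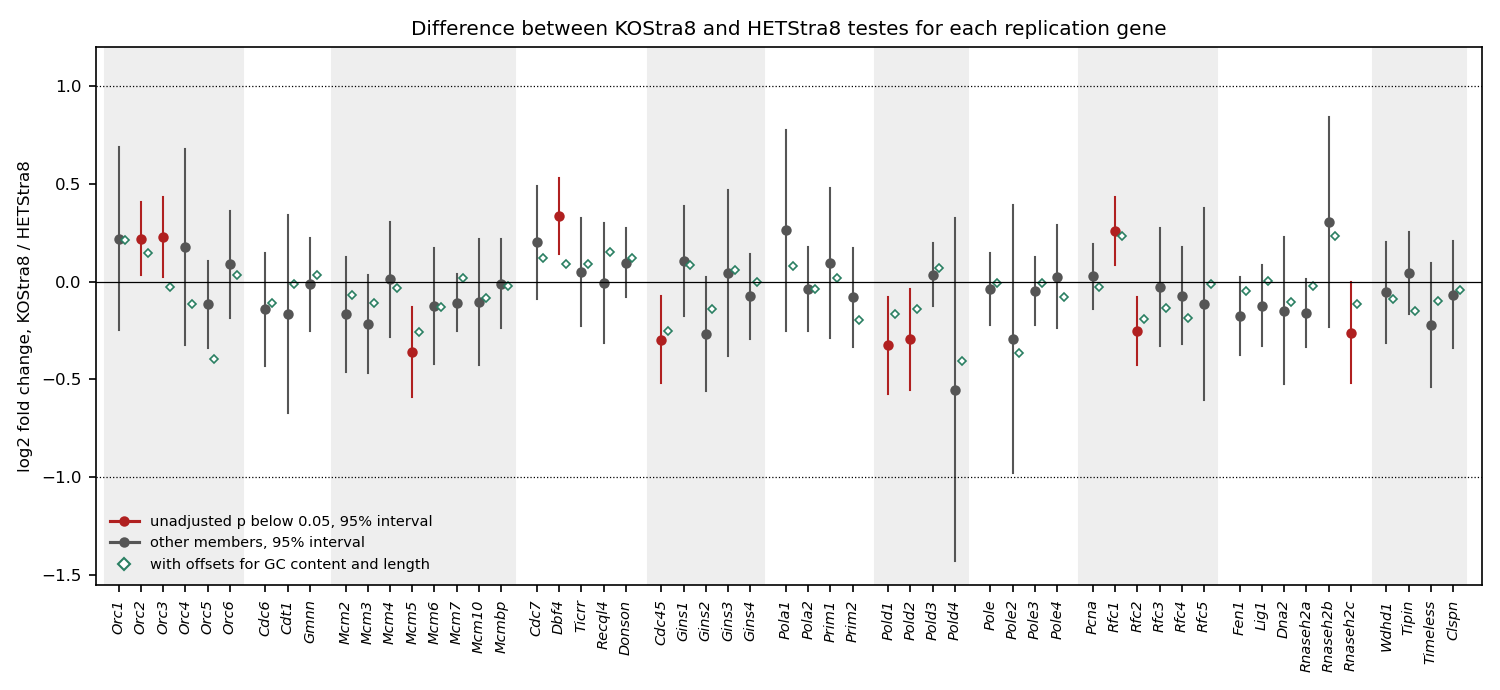
Log2 fold change of KOStra8 over HETStra8 for each of the 55 genes by subcomplex, with its 95% interval from edgeR (red, unadjusted p below 0.05; grey, the others) and its value with offsets for GC content and length (diamonds); dotted lines mark a 2-fold change. The interval reaches a dotted line for Pold4 and for no other member, and Orc3 and Tipin are among the members whose sign changes with the offsets.

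**Figure D5:**
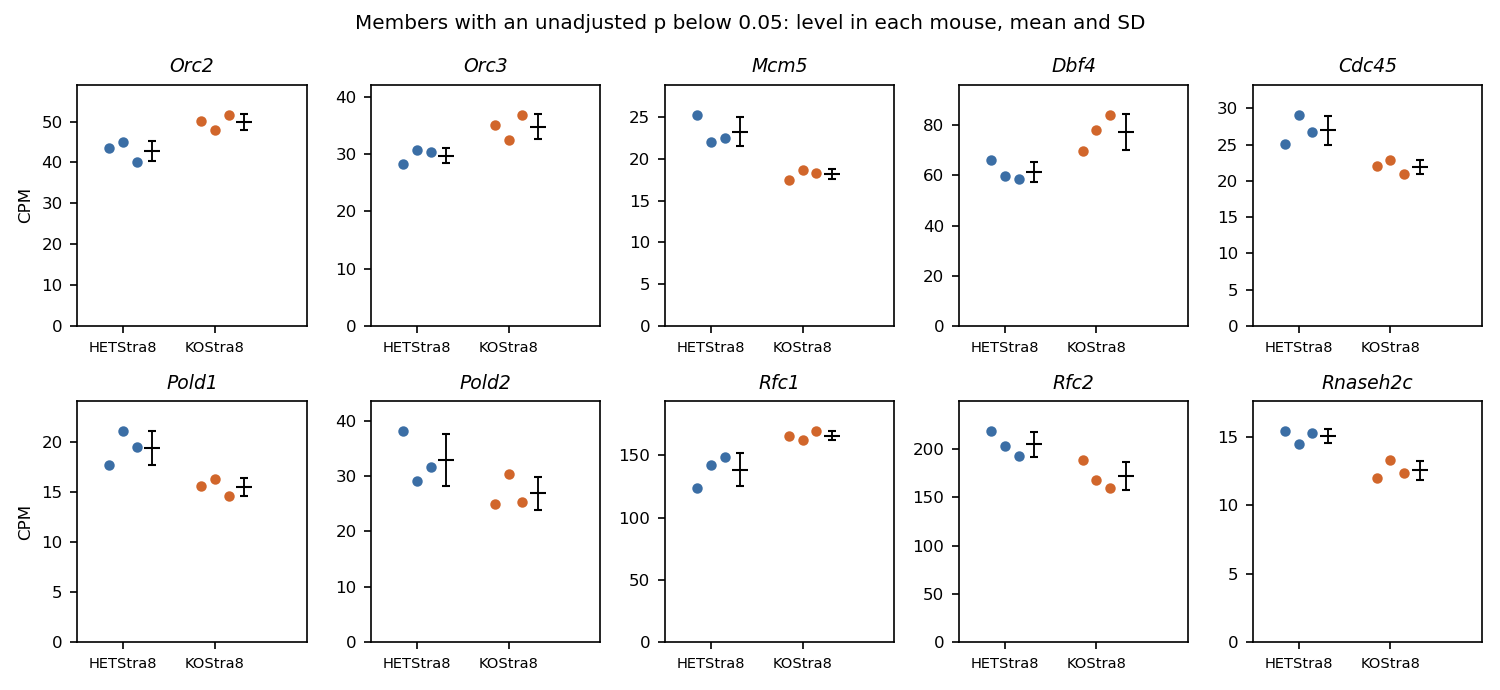
CPM of the 10 members with an unadjusted p below 0.05 in each of 3 HETStra8 (blue) and 3 KOStra8 (orange) mice, with the mean and SD of each genotype beside them and axes from 0. The genotypes are separate in each panel except that of Pold2.

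Of 53 other genes of the pathway, 0 passed the cutoffs in edgeR's test, and at an unadjusted p below 0.05, 9 were higher and 3 were lower (7.13% and 5.12% over all tested genes), with a median log2 fold change of −0.0031. With the offsets the counts were 5 and 2 (4.33% and 3.14% over all tested genes). Among genes higher in KOStra8, Top1, a topoisomerase, Etaa1, an activator of ATR at stalled forks, and Atad5, which unloads PCNA, had the smallest p-values. Their log2 fold changes were 0.40, 0.68 and 0.51, or 0.26, 0.47 and 0.31 with the offsets. Among lower genes they were Chaf1a, a histone chaperone subunit, Tyms, the thymidylate synthase, and Stn1, of the telomeric CST complex. These had log2 fold changes of −0.17, −0.67 and −0.30, or −0.10, −0.69 and −0.19 with the offsets.

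Spermatogonia and other cells of the testis were described through listed markers, and no list was made for preleptotene spermatocytes. Of 7 markers of differentiating spermatogonia, 0 had an unadjusted p below 0.05 in edgeR's test, and their summed level was 642 to 733 CPM in HETStra8 and 591.5 to 648 CPM in KOStra8 mice. Most of that sum was Dmrtb1, at 672, 624 and 582 CPM in the HETStra8 mice and 534, 586 and 572 CPM in the KOStra8 mice. How far that sum follows cells that replicate DNA was not tested. Of 7 tested markers of undifferentiated spermatogonia, 0 had an unadjusted p below 0.05, and their sums overlapped, from 72.2 to 78.1 CPM in HETStra8 and from 72.5 to 78.2 CPM in KOStra8 mice. Markers listed for early prophase spermatocytes summed to 283 to 401 CPM in HETStra8 and 406 to 459 CPM in KOStra8 mice. Whether they are limited to cells past the last S phase was not tested. Of these 7 markers, 2 were higher at an unadjusted p below 0.05, Meioc and Ythdc2, against 7.13% of all tested genes. With the offsets 1 was, Meioc, against 4.33%. Sertoli cell markers summed to 1114 to 1321 CPM in HETStra8 and 928 to 1054 CPM in KOStra8 mice, with 8 of 8 below 0. Their median log2 fold change was −0.22, or −0.11 with the offsets. At an unadjusted p below 0.05, 4 were lower (5.12% of all tested genes), or 1 with the offsets (3.14%). The sums of pachytene, round and elongating spermatid, Leydig, peritubular myoid, macrophage and endothelial markers overlapped between genotypes. Below 0 were 6 of 6 Leydig, 6 of 6 macrophage and 4 of 4 peritubular myoid markers, while 3 of 5 endothelial markers were above 0. The medians of the Leydig, macrophage and peritubular myoid markers were −0.32, −0.36 and −0.22, or −0.25, −0.21 and −0.14 with the offsets. At an unadjusted p below 0.05, 1, 2 and 1 of them were lower (5.12% of all tested genes), or 1, 0 and 0 with the offsets (3.14%). The summed level of the 55 replication genes was 2358 to 2506 CPM in HETStra8 and 2300 to 2372 CPM in KOStra8 mice. The part of these markers in the differences of the replication genes was not tested.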

How the data were processed

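Poly(A)+ RNA from whole testes of 3 KOStra8 and 3 HETStra8 mice went into directional, paired-end libraries. For each mouse the authors deposited raw counts of reads per Ensembl gene, without normalization. STAR 2.7.1a, featureCounts 1.6.0, HTSeq, Trimmomatic and Picard 2.20.4 stand among the tools in the submitters' processing notes, with mm10 (GRCm38) as the build. The strand setting and the annotation release of the counting are not given in the sources used here. GENCODE mouse release 21 (GRCm38) supplied symbols, positions, lengths and GC content, and RefSeq (GRCm38.p6) the promoters.

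In R 4.3.3, edgeR 4.0.16 filtered genes with filterByExpr, scaled libraries with TMM and fitted a robust quasi-likelihood model on genotype over all 6 mice. Two-sided F tests were adjusted by Benjamini-Hochberg over every tested gene, and the study's cutoffs (adjusted p below 0.01, over 2-fold) were kept. Trends of each library with GC content and transcript length were removed as loess offsets (span 0.3, fitted on genes over 2 in log2 CPM), except for 8 tested genes that lack a GC value. The alternatives replaced TMM by the size factors of DESeq2 or by library totals, dropped the filter or asked for at least 10 counts in each mouse, added the replicate number as a block, used the offsets with or without that block, tested with DESeq2 1.42.0 or limma-voom (limma 3.58.1), changed the threshold, or left out a mouse. With 3 mice in each group, exact permutation reaches no p below 0.1, and p-values measure the spread between these mice. Sequence shared between genes was counted in stretches of 50 bases. The steps were run on simulated counts with the same spread set for every gene. A first bound on the number of changed genes recovered failed there and was then loosened.

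The members and lists were chosen with earlier results of these data known. Every member is named. Values of each mouse are given for members with an unadjusted p below 0.05 and for the highest and lowest log2 fold change of each subcomplex, and 3 other pathway genes are named in each direction; further values by mouse and marker genes were picked after they were seen. The symbol Chtf8 was not matched and is not analysed here.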

Additional observations from a re-analysis of the deposited data

How the results depend on the processing

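The count of 0 members past the cutoffs held under every alternative listed, and at an adjusted p below 0.05 at most 1 member was called, Dbf4 without a filter and in DESeq2's test, and Rfc1 without HETStra8 mouse 3. These fits called 385, 132 and 443 of all genes at an adjusted p below 0.01, against 4 in edgeR with the filter and all 6 mice. DESeq2 gave an adjusted p for 49 of the 55 members. At an unadjusted p below 0.05, 4 members were higher and 6 lower, against 7.13% and 5.12% of all tested genes. The higher count became 1 with the offsets for GC content and length, alone (against 4.33%) and with the replicate block (4.43%). With a mouse left out, the higher count was 2 to 6, against 4.29% to 11.0% of all tested genes. The lower count was then 2 to 7, against 2.27% to 8.81%. Both counts were 2 without KOStra8 mouse 3 (4.29% and 2.27%), and without KOStra8 mouse 1 the higher count was 2 (5.50%). Without HETStra8 mouse 3 they were 6 and 7, while 11.0% and 8.81% of all tested genes were then called. The median log2 fold change of the members ran from −0.071 to −0.016 with a mouse left out, and the latter was without HETStra8 mouse 1. Deviations of same-numbered mice had a Pearson r of −0.060, −0.052 and 0.108, within the range of the other pairs (−0.116 to 0.155). With 3 mice per genotype, this cannot show whether the numbers pair mice. With the replicate block, 4 members were higher and 5 lower, against 7.58% and 4.67% of all tested genes, and the median was −0.063. Of 825 comparisons of the 55 members with an alternative, 771 kept the sign and 54 changed it, in 27 members. Of the 375 for the 25 members whose values by mouse the rule asks for, 348 kept the sign and side and 27 changed sign. With the offsets, the log2 fold change became −0.028 for Orc3, 0.035 for Gmnn, −0.030 for Mcm4, 0.15 for Recql4, −0.079 for Pole4 and −0.15 for Tipin, and of the other members it changed sign for Orc4, Mcm7, Pcna and Lig1. With the offsets and the replicate block together, it was −0.026 for Orc3, 0.0023 for Cdt1, 0.033 for Gmnn, −0.028 for Mcm4, 0.16 for Recql4, −0.079 for Pole4 and −0.14 for Tipin. Recql4 was at 0.0069 with library totals and at 0.0023 with the replicate block. With a mouse left out, Gmnn ran from −0.073 to 0.059, Mcm4 from −0.031 to 0.054, Recql4 from −0.095 to 0.15, Gins1 from −0.010 to 0.22, Prim2 from −0.19 to 0.035, Pold3 from −0.010 to 0.10 and Pole4 from −0.017 to 0.10. The causes of these changes were not tested. The low counts of Pola1, Pole2, Rnaseh2b and Pold4, at most 3.87 CPM in any mouse, limit what could be seen for them.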
